A study of Drosophila melanogaster with 41 samples.

Results

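The long neuronal 3′ UTRs described here are the 64 regions of at least 2000 nt, of 271 listed neuronal regions in all, that the deposited list of neuronal alternative polyadenylation targets classes as UTR-APA, that is, as stretches added to a transcript when cleavage moves from a proximal to a distal poly(A) site of the same last exon. The rule that defines them uses that class and the length, and no count. Of 220 UTR-APA regions, 156 were shorter. The longest member was that of mei-P26 (11009 nt, chromosome X), the shortest that of Mef2 (2006 nt, chromosome 2R), and the median length was 3128.5 nt. In coordinates of dm6, the leading members lie at chrX:12946693-12950417 on the plus strand (fne, FBgn0086675), chr3R:10507561-10509846 on the minus strand (hth, FBgn0001235), chr2L:9247187-9250093 on the plus strand (tai, FBgn0041092), chrX:18880637-18884075 on the plus strand (CG34401, FBgn0085430) and chr2L:22551786-22556295 on the plus strand (CG17493, FBgn0040010). The annotation gives 3′ UTR over the full length of 61 of the 64 members. On the X chromosome lie 17 members, on 2L 11, on 2R 10, on 3L 10, on 3R 15 and on the fourth chromosome 1, and 11 overlap a gene on the other strand and 4 another gene on the same strand. Just under the limit lay the regions of Eip63E (1972 nt), orb2 (1965 nt), nocte (1953 nt) and stx (1952 nt), with log2 usage changes of −1.29, −0.99, −1.34 and −1.59 in Δelav against wild-type embryos.

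ELAV/Hu proteins are RNA-binding proteins with 3 RNA-recognition motifs that bind U-rich RNA. Drosophila ELAV is nuclear and neuronal, and it lets RNA polymerase read past proximal poly(A) sites, so that neurons make transcripts with extended 3′ UTRs. FNE and Rbp9 are its paralogues, and FNE is cytoplasmic unless a mini-exon is included in its mRNA, which gives a nuclear form called nFNE. Extended 3′ UTRs carry binding sites for microRNAs and RNA-binding proteins and are a hallmark of nervous tissue.

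The data were mRNA-seq counts from 41 libraries of male Drosophila in 11 groups, each library a pool of whole animals or heads. At 14–16 h after egg laying, 4 libraries each came from Δelav embryos, which carry an elav deletion and die before hatching, from elavmin embryos, whose frameshift disrupts the third RNA-recognition motif and leaves little, truncated ELAV, from Δelav,fnenFNE embryos, which lack ELAV and make FNE only as nFNE because the introns flanking the mini-exon were removed, and from wild-type embryos. Heads of adult flies, labelled 72 h AH, gave 3 libraries each of elavmin, Δelav,fnenFNE and wild type. At 7–8 h, 4 libraries each came from Δelav,fnenFNE, elavmin,fnenFNE and elavnFNE embryos and from a control that itself carries fnenFNE. In elavnFNE the elav coding region was replaced by that of nFNE, and its own fne gene lacks the mini-exon. Library totals ranged between 17668742 and 51377771 counts. Markers of the tissue went with the labels: in wild-type heads against wild-type embryos all 5 neuron and all 5 photoreceptor markers rose and all 4 neuroblast markers fell in CPM, the counts scaled to a common library size. Counts of elav did not drop in Δelav (549 to 629 CPM, against 168 to 185 CPM in wild-type embryos), so they are no check of that label. These are whole embryos and heads, in which fewer neurons and less RNA of a gene per neuron cannot be told apart.

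A region was measured by the exon bins of its gene with at least 0.5 of their length inside it, and its share is the percentage of all counts of that gene that fell in those bins. This gave values for 60 members, 47 of them with a single bin, and 54 were covered in full. The regions of elav, the RNA-binding translational regulator gene msi, the transcription factor gene chinmo and the splicing regulator gene ps had no such bin. Least covered were the regions of Syt1 (22.4%), shakB (46.1%) and E(Pc) (58.2%). Bins of 19 members reached outside the region, and 8 members lie in genes that were merged with a neighbour for counting.

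The regions are A- and T-rich, which is shown here because ELAV/Hu proteins bind U-rich RNA. On the sense strand the median member held 28.0% T, against 28.8% in the shorter UTR-APA regions and 22.6% in 1912 other bins of at least 2000 nt. These other bins are exon bins of any kind and not only 3′ UTRs. A run of 7 T (TTTTTTT, sense strand only) occurred in 64.1% of members, 37.2% of the shorter UTR-APA regions and 27.2% of the other long bins, and within the first 300 nt in 20.3%, 17.3% and 3.9% of them. Per kb there were 0.474 such runs in members, 0.540 in the shorter regions and 0.182 in the other long bins, so that for their length the members held fewer than the shorter regions. The polyadenylation signal AATAAA lay within the 50 nt before the region, where the proximal site is used, for 34.4% of members, 48.7% of the shorter UTR-APA regions and 6.6% of the other long bins. The Pumilio motif TGTANATA occurred in 59.4% of members, 37.2% of the shorter regions and 27.5% of the other long bins, or 0.321, 0.457 and 0.145 times per kb. The members are longer than the shorter regions (median 844.5 nt) and the other bins (median 2570.5 nt), which raises the chance of any match, and a match is no evidence of binding. The windows of 30 nt richest in T within the first 300 nt follow for members that turn out to lead the comparisons, with runs of 5 or more T in capitals (T stands for U in the RNA), and after them windows before the start of the region with AATAAA in capitals. Sequences are from RefSeq's Release 6 (dm6) genome, in the 5′ to 3′ direction of the transcript.
fne, 182 nt into the region, chrX:12946874-12946903, plus strand: ttgggttattttattcgactccatcTTTTT
hth, 12 nt, chr3R:10509806-10509835, minus strand: tttcttagtgTTTTTatttcaattttggtt
tai, 38 nt, chr2L:9247224-9247253, plus strand: tgttttcattattttaaatcgtctttcttt
CG34401, 7 nt, chrX:18880643-18880672, plus strand: atctatgttggttttaTTTTTcttggtttt
CG11030, 11 nt, chr2L:5760058-5760087, plus strand: ttgtgTTTTTTTTTTaTTTTTTTaaggatt
CG17493, 212 nt, chr2L:22551997-22552026, plus strand: tattcccttcatcTTTTTTTTTTgatcaat
CG17493, before the region, chr2L:22551747-22551776, plus strand: tcataAATAAAttcgtgtgcttggttttgc
Rbp9, before the region, chr2L:2965345-2965374, plus strand: acagcAATAAAaaaacacaacgtaacgaac
mei-P26, before the region, chrX:9178251-9178280, plus strand: ccagaAATAAAaacgagccaaaaagaattt

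Without ELAV, the long regions lost counts relative to the rest of their genes. The median share over the 60 members was 8.22%, 8.58%, 8.26% and 8.06% in the 4 Δelav libraries and 7.99%, 9.09%, 7.12% and 8.69% in the 4 elavmin libraries, against 16.2%, 14.8%, 15.5% and 15.6% in the wild-type libraries. Δelav,fnenFNE embryos had 11.6%, 9.54%, 13.9% and 14.15%. All libraries of the 3 mutants lay below all wild-type libraries, and the Δelav,fnenFNE libraries lay above those of both single mutants.

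**Figure D1:**
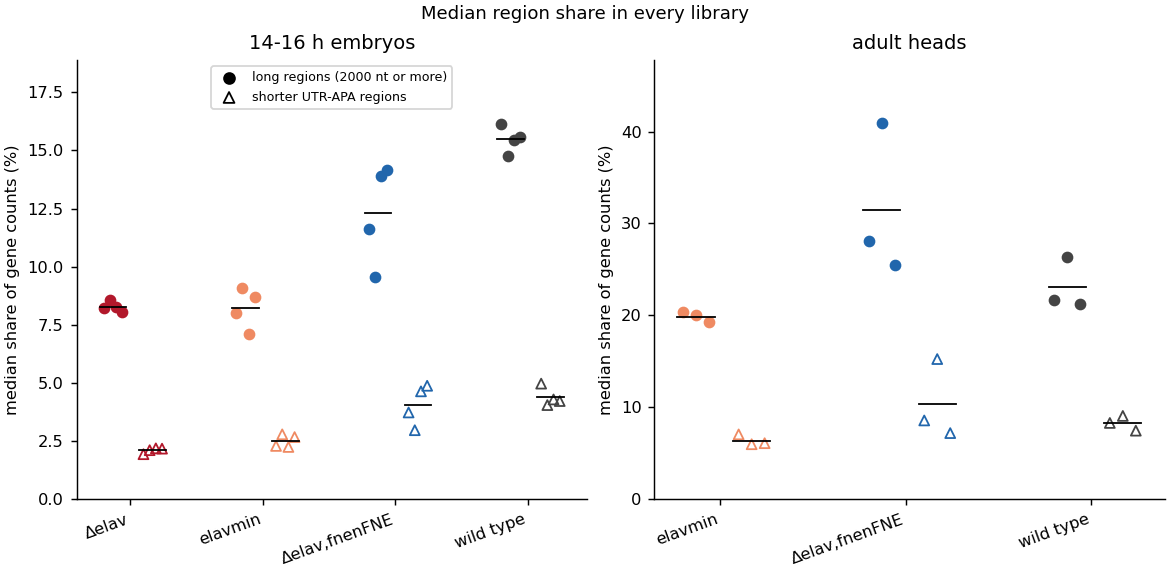
Median share of gene counts (%, y axis) over the long regions and over the shorter UTR-APA regions in every library, by genotype (x axis), for 14–16 h embryos (left) and adult heads (right), with filled circles for the long regions, open triangles for the shorter ones and lines for group means. In embryos the Δelav libraries lie between 8.06% and 8.58% for the long regions and those of wild type between 14.8% and 16.2%.

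Differential usage was tested with quasi-likelihood fits in edgeR, which ask whether a region's share changed against the other bins of its gene, with Benjamini-Hochberg adjustment over all features and a threshold of 0.01. In Δelav against wild type, 47 of the 60 members fell and 0 rose, against 0.958% and 0.495% of the 58351 features tested. At an unadjusted p under 0.05, 59 were lower and 0 higher (3.59% and 2.66% of all features), and DESeq2 called 53 lower and 0 higher. The median log2 usage change of the members was −0.77, all 60 fitted changes lay below 0, and in 57 members the 4 Δelav shares lay below the 4 wild-type shares without overlap and in 0 above them, against 4.04% and 3.98% of all features. In elavmin, 43 fell and 0 rose (background 0.808% and 0.536%), and 52 and 0 at an unadjusted p under 0.05 (background 4.02% and 2.83%), with a median of −0.63, and 50 members lay below and 0 above wild type without overlap (background 4.37% and 4.17%). The smallest changes were those of Rbp9 (−0.01), jeb (−0.20) and CG16791 (−0.23) in Δelav and of CG3262 (−0.07), nAChRalpha1 (−0.12) and olf413 (−0.12) in elavmin. Of the shorter UTR-APA regions 94 of 134 fell in Δelav, with a median of −0.80, whereas 24 of 1448 other bins of at least 2000 nt fell. Many members carry the tags elav.early or elav-fne.early in the list, which the sources used here do not explain. The study describes the 3′ UTRs it tested as ones found in earlier work to depend on ELAV or FNE. For the listed regions, long or shorter, the direction in Δelav is therefore not independent evidence.

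**Figure D2:**
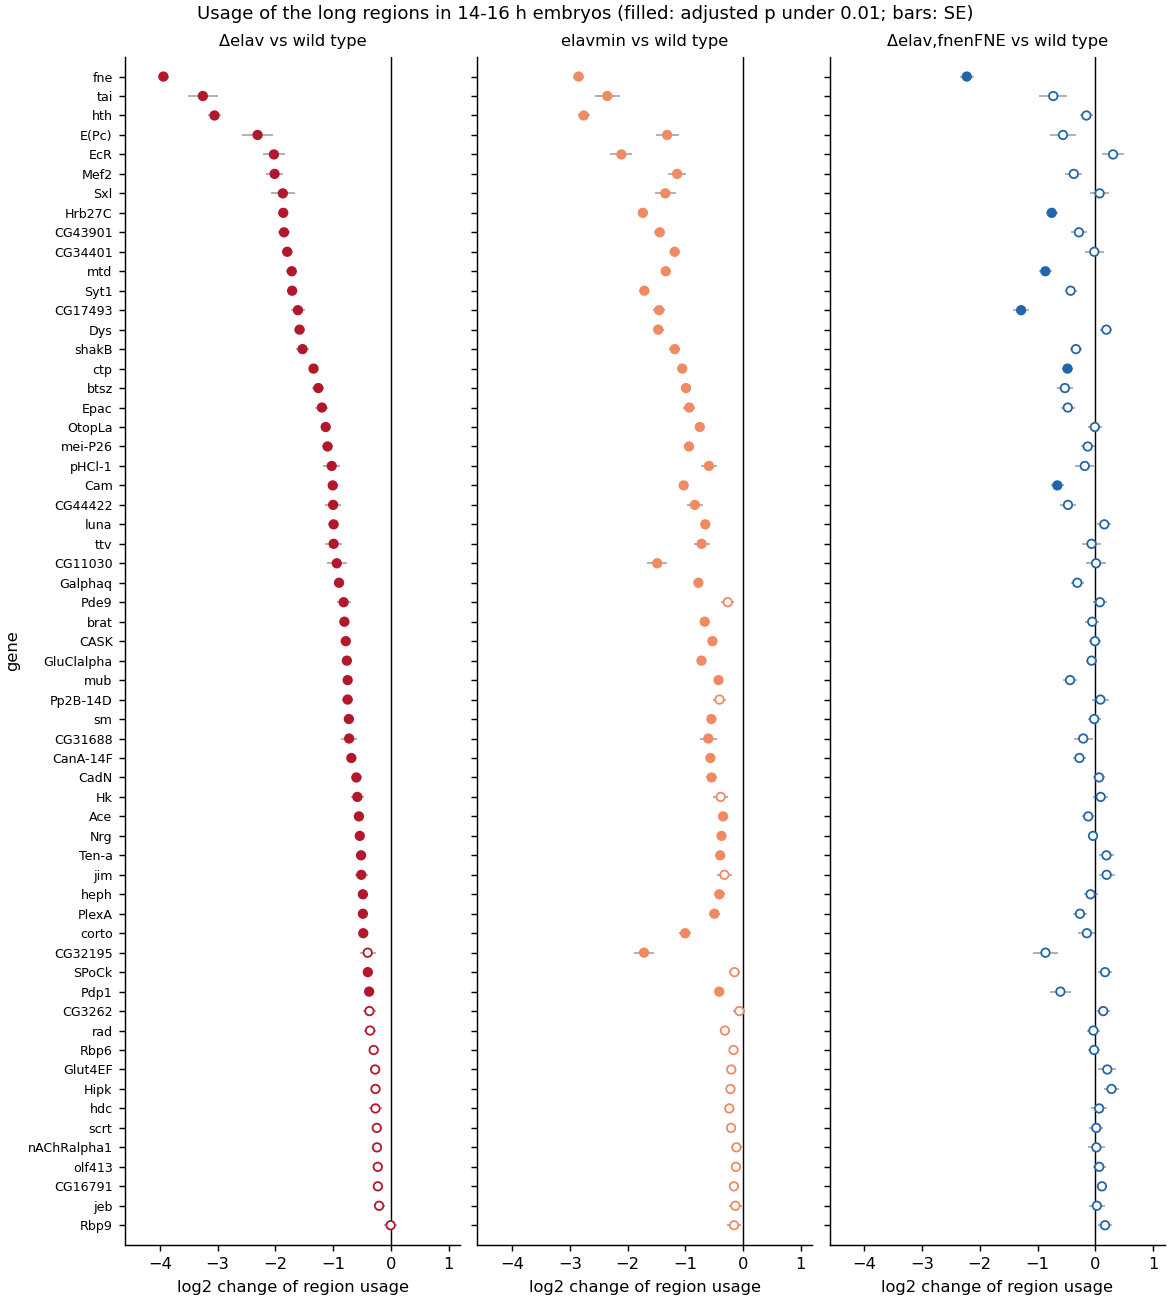
Log2 usage change against wild type (x axis) of each of the 60 members at 14–16 h (y axis), 1 panel per mutant, with standard errors as horizontal bars and filled points for members past the threshold of 0.01. The points for Δelav and elavmin lie left of 0 for every member, from −3.94 for fne in Δelav up to −0.01 for Rbp9, and those of Δelav,fnenFNE lie mostly near 0, with a median of −0.06.

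Among the 10 measured members that encode RNA-binding and translational regulators, 8 fell in Δelav. The region of fne, the ELAV paralogue, changed most of all members. Its share was 1.32%, 0.993%, 1.36% and 1.27% in Δelav, 2.25%, 3.29%, 2.06% and 2.86% in elavmin and 4.35%, 3.31%, 3.73% and 4.74% in Δelav,fnenFNE, against 19.3%, 18.9%, 18.7% and 19.1% in wild type. No mutant library came near wild type, and Δelav and elavmin did not overlap each other. The log2 usage change was −3.94 (SE 0.098, adjusted p = 1.31e-60, edgeR) in Δelav, −2.85 in elavmin (SE 0.096) and −2.22 in Δelav,fnenFNE (SE 0.12, adjusted p = 6.14e-29), whose fne locus is itself edited. The total fne level did not pass the gene-level test (adjusted p under 0.05, edgeR) in Δelav, with a log2 change of 0.07, and rose in Δelav,fnenFNE (0.69, adjusted p = 7.74e-05).

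The region of Rbp9, the other ELAV/Hu paralogue among the members, stood at the opposite end. Its share was 4.90%, 5.16%, 4.86% and 5.39% in Δelav, against 5.19%, 5.68%, 4.91% and 4.60% in wild type, and the groups overlapped. The log2 change was −0.01 (SE 0.12, adjusted p = 1.0, edgeR). The region of mei-P26, a translational regulator of germline and neural stem cells and the longest member, had 21.4%, 22.1%, 21.7% and 22.4% in Δelav, against 48.7%, 45.7%, 47.0% and 46.6% in wild type, and fell by 1.10 on the log2 scale (SE 0.094). The other members of this role that fell in Δelav were those of Sxl, the switch gene of sex determination (−1.87), Hrb27C, an hnRNP (−1.86), brat, a translational repressor and relative of mei-P26 (−0.81), mub, a KH-domain protein gene (−0.75), sm, an hnRNP L relative (−0.73), and heph, the polypyrimidine tract-binding protein gene (−0.49). Rbp6, a relative of the Musashi family, had −0.30 and did not pass.

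Transcription and chromatin regulators held 9 members that fell of 11 measured, and the members with the largest changes after fne. The share of the hth region, of a homeodomain cofactor of Hox proteins, was 0.326%, 0.419%, 0.424% and 0.482% in Δelav and 0.480%, 0.591%, 0.400% and 0.541% in elavmin, against 3.15%, 3.42%, 3.74% and 3.48% in wild type. Both mutants lay far below wild type and overlapped each other. The log2 changes were −3.06 (SE 0.11) in Δelav and −2.76 (SE 0.10) in elavmin, with adjusted p of 8.86e-58 and 6.77e-52 (edgeR). The region of tai, a coactivator of the ecdysone receptor, held 4 to 10 counts per Δelav library, against 63 to 97 counts in wild type, a log2 change of −3.26 (SE 0.26), and had −2.35 (SE 0.22) in elavmin. E(Pc), a chromatin regulator gene, fell by 2.31, EcR, which encodes the ecdysone receptor, by 2.03 and Mef2, the muscle and neuronal transcription factor gene and the shortest member, by 2.02. The Mef2 region had 0.367%, 0.278%, 0.307% and 0.422% in Δelav, against 1.60%, 1.40%, 1.36% and 1.21% in wild type, without overlap. The E(Pc) region had 0.184%, 0.131%, 0.193% and 0.311% in Δelav and 0.303%, 0.327%, 0.481% and 0.520% in elavmin, against 1.19%, 0.754%, 0.920% and 1.15% in wild type. Both mutants lay below all wild-type libraries, on 7 to 15 counts per Δelav library. The corto region had 3.66%, 4.04%, 2.55% and 3.11% in elavmin and 4.41%, 5.28%, 4.76% and 4.98% in Δelav, against 6.79%, 6.45%, 6.91% and 6.83% in wild type. The elavmin and Δelav libraries did not overlap, but their difference of −0.53 was not called (adjusted p = 0.0151). The transcription factor genes luna, jim and Pdp1 had −0.99, −0.51 and −0.38 in Δelav and passed, Pdp1 with libraries that overlapped wild type, and scrt, a neuronal zinc finger gene, and Glut4EF did not pass, with −0.24 and −0.27.

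**Figure D3:**
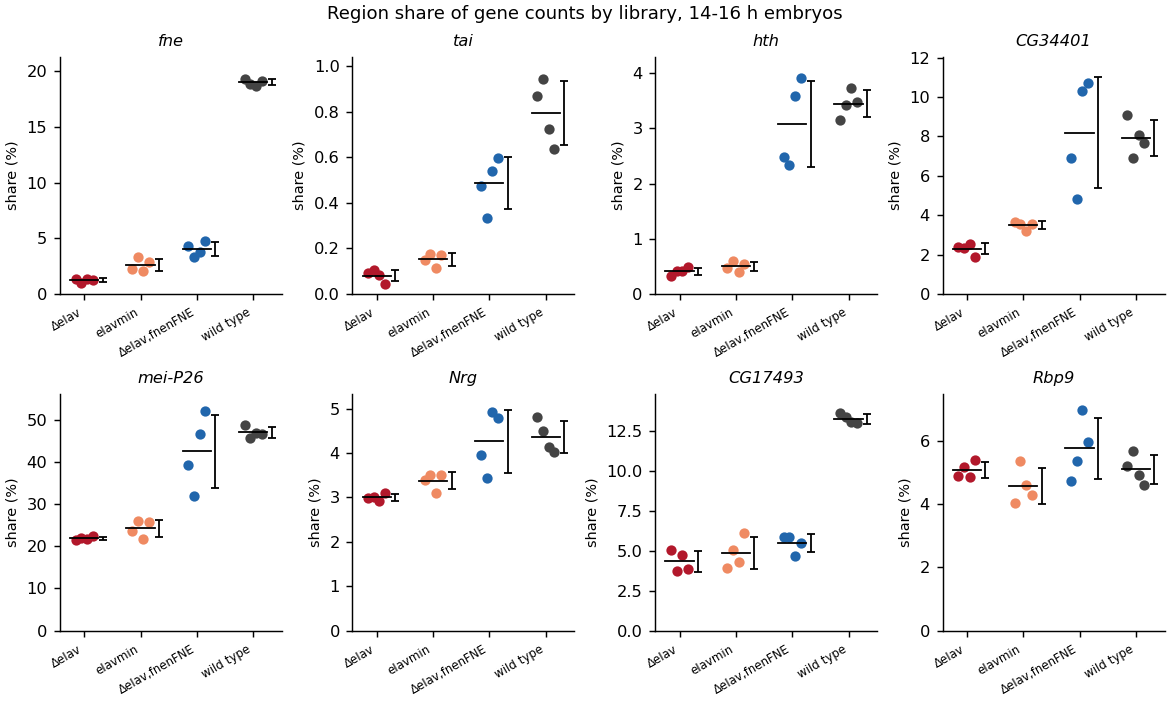
Share of gene counts (%, linear y axis with its own range in each panel) of selected members in each of the 4 libraries of Δelav, elavmin, Δelav,fnenFNE and wild-type embryos at 14–16 h (x axis), 1 panel per gene, with points for libraries, lines for means and bars of 1 SD to either side. For hth the Δelav libraries lie between 0.326% and 0.482% and wild type between 3.15% and 3.74%, whereas for Rbp9 the groups overlap.

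All 6 measured adhesion, guidance and matrix members fell in Δelav. They were Dys, the dystrophin gene (−1.58), ttv, of heparan sulphate synthesis (−0.99), CadN, N-cadherin (−0.60), Nrg, the L1-type adhesion molecule neuroglian (−0.54), Ten-a, a teneurin (−0.52), and PlexA, a semaphorin receptor (−0.49). Of the 8 synaptic, channel and junction members 7 fell: Syt1, the calcium sensor of transmitter release (−1.71), shakB, a gap junction innexin (−1.53), OtopLa, an otopetrin relative (−1.13), pHCl-1, a chloride channel subunit (−1.03), GluClalpha, a glutamate-gated chloride channel (−0.76), Hk, a potassium channel beta subunit (−0.58), and Ace, acetylcholinesterase (−0.56). The acetylcholine receptor subunit gene nAChRalpha1 had −0.24 and did not pass. For Syt1 the shares were 2.11%, 2.41%, 1.98% and 2.11% in Δelav and 1.96%, 2.56%, 2.06% and 1.97% in elavmin, against 7.45%, 6.89%, 6.62% and 7.31% in wild type. For shakB they were 2.86%, 2.95%, 3.17% and 3.30% in Δelav, against 9.31%, 8.44%, 9.31% and 8.47% in wild type. Neither overlapped wild type. For Dys they were 0.813%, 0.893%, 0.816% and 0.890% in Δelav and 2.66%, 1.86%, 3.40% and 3.88% in Δelav,fnenFNE, against 2.84%, 2.55%, 2.44% and 2.40% in wild type, so that the double mutant spanned the wild-type values. Both cytoskeletal members fell, ctp, the dynein light chain gene (−1.34), and btsz, a synaptotagmin-like gene (−1.26).

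Of the 12 signalling members 8 fell in Δelav. Epac, an exchange factor for the small GTPase Rap1, had −1.20, calmodulin (Cam) −1.01, the Gq alpha subunit gene Galphaq −0.90, Pde9, a phosphodiesterase gene, −0.82 and the scaffold gene CASK −0.78. The calcineurin catalytic subunit genes Pp2B-14D and CanA-14F had −0.75 and −0.69, and SPoCk, a calcium pump gene, had −0.40. Those that did not pass were Hipk (−0.27), a kinase gene, jeb (−0.20), the ligand of the receptor kinase Alk, olf413 (−0.23) and rad (−0.36). Of the 11 other members 7 fell, among them CG43901 (−1.85), CG34401 (−1.80), mtd (−1.72) and CG17493 (−1.61). The Cam region had 8.31%, 8.73%, 8.53% and 7.83% in Δelav and 8.15%, 8.26%, 8.18% and 8.31% in elavmin, against 17.2%, 16.5%, 16.4% and 17.0% in wild type, without overlap between either mutant and wild type. CG11030 was called lower (−0.94) although library b of Δelav, with 6.98%, lay above the lowest wild-type library, with 6.75%. In elavmin the counts by role were 8 of 10 RNA-binding, 8 of 11 transcription, 6 of 6 adhesion, 6 of 8 synaptic, both cytoskeletal, 5 of 12 signalling and 8 of 11 other members. By the list's tags, 24 of 27 measured members tagged elav.early, 18 of 21 tagged neuronal and 4 of 11 tagged elav-fne.early fell in Δelav, and the median change of these last 11 was −0.30.

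The total level of the genes, which includes the counts of the region itself, changed far less than the share of the region. Loss of the region thus lowers the total as well, and totals without the region were not tested. In Δelav 21 of the 60 genes fell and 2 rose at the gene level, against 11.7% and 11% of all genes, with a median log2 change of −0.12, and for 34 of the 47 regions that fell the gene total did not pass. In elavmin 25 fell and 1 rose (background 14.4% and 15.2%), and for 23 of 43 regions the gene total did not pass. In Δelav,fnenFNE 26 fell and 4 rose (background 12.8% in each direction), although few regions changed there. Beside these results, the summed level of 5 neuron markers was 1217.7 to 1489.3 CPM in Δelav and 1356.3 to 1604.6 CPM in elavmin. It was 1343.6 to 1503.1 CPM in Δelav,fnenFNE, against 1520.8 to 1740.2 CPM in wild type. That of 4 neuroblast markers was 59.2 to 66.2 CPM in Δelav and 54.9 to 63.9 CPM in Δelav,fnenFNE, both above wild type (44.7 to 50.1 CPM). In elavmin it was 45.7 to 55.9 CPM, which overlaps wild type. In Δelav the neuroblast markers wor, ase and mira were higher without overlap. The level of dpn overlapped wild type (6.01 to 8.28 CPM, against 6.13 to 7.07 CPM). Of the neuron markers nSyb, cpx and para fell in Δelav and brp and onecut did not pass, and none is near 0. Their part in the result was not tested. Of the 14 tested cleavage and polyadenylation factor genes 0 passed in Δelav (edgeR gene-level test), and 1 was lower at an unadjusted p under 0.05.

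For the 13 members measured by several bins the usage change can be given along the region. In Δelav the last bin had the lower usage change in 10 of 13 members, and the median difference between the last and the first bin of a member was −0.35. In Nrg the bins had −0.15, −0.23 and −2.06 in order from the proximal site, and only the distal bin passed, so that the summed change of −0.54 understates the loss of its distal 1838 nt. Cam had −0.87 and −2.74, Hrb27C −0.91 and −2.18 and sm −0.57 and −2.16. The region of brat ran the other way, with −0.998 and −0.487. The first bins of Cam, sm and brat begin 188, 2003 and 1626 nt before the region, so their values include sequence upstream of it. In elavmin the last bin was the lower in 12 of 13 at 14–16 h and in 13 of 13 in heads. In Δelav,fnenFNE it was the lower in 9 of 13 at 14–16 h but in 2 of 13 in heads, with a median difference of 0.12, and at 7–8 h in 4, 4 and 3 of 6 members in Δelav,fnenFNE, elavmin,fnenFNE and elavnFNE.

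Across the 60 members, the Δelav change went with the wild-type share (Pearson's r = 0.47, Spearman's rho = 0.55), so that regions with a small share in wild type had the more negative changes. It went little with length (r = 0.17, rho = 0.25) and T content (r = −0.25, rho = −0.33). These are descriptions over members that share the same 8 libraries, and the wild-type share also enters the change.

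In Δelav,fnenFNE embryos, which lack ELAV but make FNE as nFNE, most regions lay nearer the wild-type share than in Δelav. In Δelav,fnenFNE against Δelav embryos, 36 of the 60 members rose and 0 fell, against 0.461% and 0.107% of all features, with a median log2 change of 0.70. Without overlap 38 members were higher and 1 lower (background 2.87% and 3.53%), and at an unadjusted p under 0.05 the counts were 52 and 1 (background 3.76% and 2.26%). Against wild type 6 fell and 0 rose (background 0.332% and 0.361%), or 21 and 1 at an unadjusted p under 0.05 (background 3.44% and 3.29%), with a median of −0.06. There 16 members were lower than wild type without overlap and 0 higher (background 4.35% and 3.49%). These comparisons share the Δelav,fnenFNE libraries. The smallest changes were those of Rbp9 (0.17), PlexA (0.22) and Pdp1 (−0.23) against Δelav and of CASK, OtopLa and CG11030 (−0.01, −0.01 and 0.01) against wild type, each with overlap. The share of the hth region was 2.48%, 2.34%, 3.58% and 3.91% in Δelav,fnenFNE, which overlaps wild type (3.15% to 3.74%) and lies above Δelav (0.326% to 0.482%), a log2 change of 2.90 (SE 0.16, adjusted p = 4.74e-35, edgeR) against Δelav. The next largest rises were those of tai (2.53), EcR (2.33), Sxl (1.95) and CG34401 (1.78). For EcR the shares were 2.53%, 1.18%, 2.78% and 3.33% in Δelav,fnenFNE, against 0.358% to 0.540% in Δelav, and the wild-type libraries had 1.74% to 2.30%. For mei-P26 the Δelav,fnenFNE shares were 39.4%, 32.0%, 46.6% and 52.0%, against 21.4% to 22.4% in Δelav, and they spanned the wild-type values.

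By role, 6 of 10 RNA-binding, 5 of 6 adhesion, 6 of 8 synaptic, 7 of 11 transcription, 6 of 12 signalling and both cytoskeletal members rose against Δelav. The 6 members called below wild type over the whole region in Δelav,fnenFNE were fne, CG17493 (−1.28), mtd (−0.86), Hrb27C (−0.75), Cam (−0.66) and ctp (−0.48). The CG17493 region had 5.86%, 5.87%, 4.68% and 5.50% in Δelav,fnenFNE and 5.07%, 3.71%, 4.71% and 3.88% in Δelav, which overlap, against 13.6%, 13.4%, 13.0% and 13.0% in wild type. The Hrb27C region had 6.40%, 5.08%, 7.23% and 7.96% in Δelav,fnenFNE, between 3.01% to 3.14% in Δelav and 10.8% to 12.1% in wild type. Its rise over Δelav was 1.11 and passed. Of the members measured by several bins, the distal bins of Nrg (−0.79, adjusted p = 4.06e-08, edgeR) and sm (−1.001, adjusted p = 1.42e-10) were also below wild type, although their summed regions did not pass.

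Libraries c and d of Δelav,fnenFNE stood apart from the other 14 embryo libraries of this age in coverage, which lay nearer the 3′ ends of genes in general: the shift to the 3′ end, over 5022 genes, was 0.178 and 0.166 on the log2 scale in these libraries, 0.036 and −0.009 in libraries a and b of the same group. These libraries also had the higher median shares. Without them 12 members fell against wild type and 20 rose against Δelav, and this alternative was chosen after seeing the data. Leaving out single libraries gave 25 to 43 members that rose against Δelav. The part of coverage in the result was not tested otherwise.

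Between the hypomorph and the null, few regions differed. In elavmin against Δelav embryos, 3 of 59 members rose and 1 fell (background 0.239% and 0.118%), with a median log2 change of 0.16. Those that rose were fne (1.09, adjusted p = 1.03e-12, edgeR), CG34401 (0.61, with shares of 3.65%, 3.54%, 3.22% and 3.58% in elavmin, against 2.41%, 2.35%, 2.53% and 1.89% in Δelav) and OtopLa (0.38). CG32195 fell by 1.31 (SE 0.14, adjusted p = 7.08e-09), with shares of 5.26%, 5.73%, 5.06% and 5.58% in elavmin, against 13.9%, 14.7%, 12.4% and 13.2% in Δelav, and wild type had 14.9% to 22.1%. This region lies in a gene merged with a neighbour and held 32 to 47 counts per elavmin library. Without Δelav library d, CG34401 and OtopLa no longer passed, which left 2 members. The members with the smallest differences, Syt1, PlexA and Cam, had shares that overlapped in the mutants.

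In wild type most long regions held a larger share of their genes' counts in heads than in embryos. In wild-type heads against wild-type embryos 42 of 60 members rose and 3 fell, against 7.38% and 7.05% of all features, with a median log2 change of 0.72. The stage, the tissue and its cell types change together here and cannot be told apart. Because the regions were listed as neuronal and neuron markers are higher in heads, the direction is not independent evidence here either. The largest rises were in tai (7.51%, 9.12% and 6.60% in heads, against 0.638% to 0.945% in embryos, log2 3.28), Mef2 (3.24) and EcR (3.18). Galphaq fell by 2.02, CG32195 by 0.68 and OtopLa by 0.41, and hth, with 3.14%, 3.56% and 3.81% in heads, had a log2 change of 0.03, beside Rbp6 (−0.03) and nAChRalpha1 (0.04) the smallest.

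In elavmin far fewer members were called in adult heads than in embryos, on 3 libraries per group in heads and 4 in embryos. For Δelav,fnenFNE the counts were 3 in heads and 6 in embryos. In elavmin heads 7 of 60 members fell and 1 rose (background 0.423% and 0.497%), with a median log2 change of −0.17. Of the 60 changes 56 lay below 0. Without overlap 29 members were lower and 1 higher than in wild-type heads (background 7.72% and 8.6%). CG17493 fell most, with shares of 16.9%, 13.5% and 10.6% in elavmin heads, against 43.6%, 42.1% and 43.9% in wild-type heads, a change of −1.67 (SE 0.13, adjusted p = 1.07e-09, edgeR). Pdp1, a leucine zipper transcription factor gene of the circadian clock, had 6.51%, 6.87% and 6.90% in elavmin, against 12.0%, 14.6% and 10.98% in wild type (−0.89), and Dys had 2.59%, 2.40% and 2.26%, against 4.18%, 4.96% and 3.85% (−0.84). The others that fell were tai (−0.83), EcR (−0.80), hth (−0.68) and Nrg (−0.67). None of these 7 overlapped between the groups. When the 3 genotypes of heads were fitted together only CG17493 and Dys passed, with adjusted p of 1.91e-07 and 0.00101, and the others had adjusted p of 0.0116 (Galphaq, the member that rose), 0.018 (EcR), 0.0203 (Pdp1), 0.0381 (Nrg), 0.0577 (tai) and 0.316 (hth, edgeR). Without elavmin heads library c, EcR, hth and Nrg no longer passed, which left 5 members, and hth and Nrg also depended on other single libraries. The fne region, the most affected in embryos, had 42.9%, 40.4% and 43.3% in elavmin heads, against 47.7%, 45.7% and 45.9% in wild-type heads, and did not pass (−0.14). The smallest changes were those of jeb (0.01), nAChRalpha1 (−0.02) and scrt (−0.02).

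The difference in change between stages was tested for elavmin in a single model as an interaction term. In 18 of 60 members the change was more negative in embryos than in heads, and in 0 less negative (background 0.244% and 0.111%), or 34 and 2 at an unadjusted p under 0.05 (background 2.51% and 1.7%), with a median difference of −0.45. The largest difference was that of fne (−2.71, SE 0.15, adjusted p = 1.53e-37, edgeR), followed by hth (−2.08), tai (−1.52), Galphaq (−1.46) and EcR (−1.31). CG17493 and Nrg, with differences of 0.23 and 0.29, did not pass. The same wild-type libraries enter each stage's change.

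**Figure D4:**
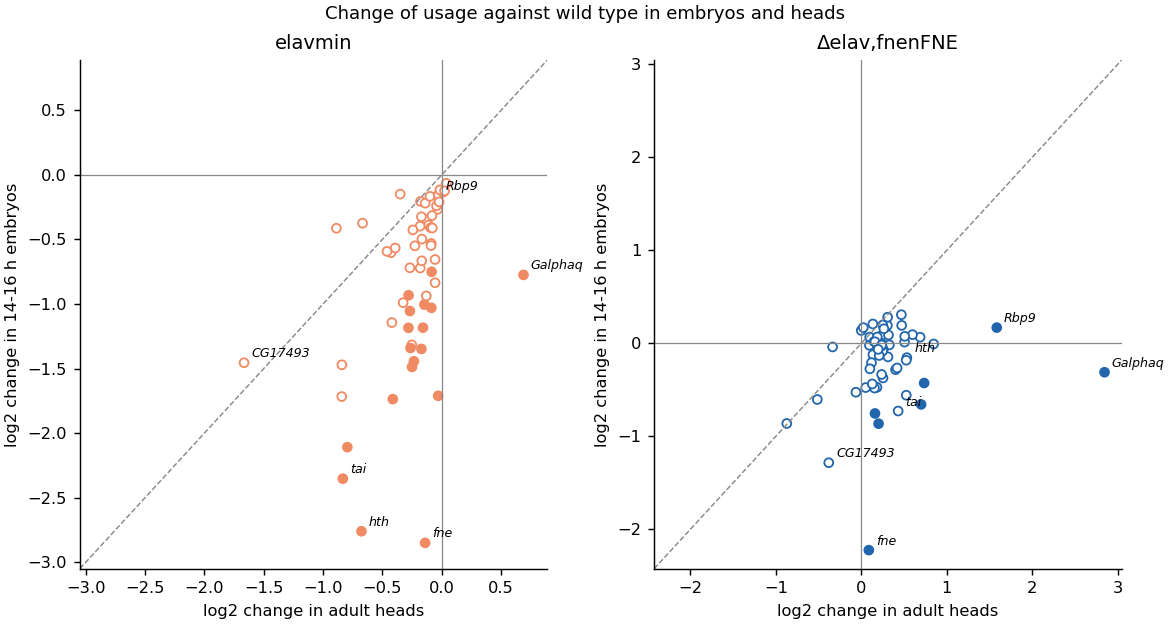
Log2 usage change of each member against wild type in heads (x axis) and in embryos at 14–16 h (y axis), for elavmin (left) and Δelav,fnenFNE (right), with 1 point per member, filled where the difference between stages passed, and a dashed diagonal of equal change. For elavmin fne lies at −2.85 in embryos and −0.14 in heads, whereas CG17493 lies near the diagonal at −1.45 and −1.67.

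In Δelav,fnenFNE heads 3 of 60 members rose and 0 fell (background 0.414% and 0.535%, edgeR), or 12 and 1 at an unadjusted p under 0.05 (background 2.86% and 3.1%). The median share was 28.1%, 40.9% and 25.5%, against 21.7%, 26.3% and 21.3% in wild-type heads, and the median log2 change was 0.24. Library b, the highest, also had the largest 3′ shift of coverage of all libraries (0.341 over 4775 genes, against 0.069 and 0.006 in libraries a and c). Galphaq rose by 2.85 (SE 0.19, adjusted p = 7.62e-23, edgeR), with shares of 23.0%, 24.7% and 20.3%, against 2.98%, 3.33% and 3.22% in wild type, while its total fell by 2.21 on the log2 scale. Rbp9 rose by 1.59 (SE 0.19), with 32.3%, 45.4% and 30.4%, against 11.5%, 13.3% and 11.3%, while its total fell by 1.10. OtopLa rose by 0.85, with 31.4%, 48.1% and 28.8%, against 19.9%, 21.2% and 19.6%, and no longer passed without any 1 of the wild-type libraries. CG3262 (−0.001), SPoCk (0.02) and Epac (0.05) had the smallest differences.

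Levels of markers of photoreceptors and of other cells in the heads of both mutants are given beside these changes. The summed level of 5 photoreceptor markers was 425.1 to 469.3 CPM in Δelav,fnenFNE heads and 28203.7 to 29352.7 CPM in elavmin heads, against 50241.0 to 51323.6 CPM in wild-type heads, and all 5 fell in both mutants. That of 5 neuron markers was 4925.5 to 5515.3 CPM in Δelav,fnenFNE heads and 5232.9 to 6342.8 CPM in elavmin heads, against 6214.8 to 7127.7 CPM in wild-type heads. Among them nSyb, cpx and onecut were lower in both mutants without overlap, and para overlapped wild type. The level of brp was higher in elavmin (1315.20 to 1764.97 CPM, against 933.85 to 1084.05 CPM) and overlapped wild type in Δelav,fnenFNE. The sum of 4 glia markers was higher than in wild-type heads without overlap in both mutants. It was 2842.8 to 3133.1 CPM in Δelav,fnenFNE and 2870.3 to 3256.5 CPM in elavmin, against 2278.1 to 2436.0 CPM. Of these genes repo, moody and Gs2 were higher in both mutants without overlap. Eaat1 was lower, at 422.69 to 480.87 CPM in Δelav,fnenFNE and 467.04 to 547.21 CPM in elavmin, against 560.14 to 588.60 CPM. Muscle markers (4 genes) had 10009.3 to 10589.7 CPM in Δelav,fnenFNE and 6429.5 to 7457.3 CPM in elavmin, against 5683.7 to 7109.0 CPM. Galphaq, which encodes the G protein alpha subunit of phototransduction, also rose in share in elavmin heads (4.94%, 4.91% and 5.57%, log2 0.69), where its total fell by 0.70. The part of these cell types in the shares was not tested. At the gene level 13 of 60 genes fell and 3 rose in elavmin heads (background 10% and 10.2%), and 18 fell and 8 rose in Δelav,fnenFNE heads (background 13.8% and 14.4%).

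For Δelav,fnenFNE the change in embryos was more negative than in heads in 7 of 60 members and less negative in 0 (background 0.251% and 0.265%), or 23 and 0 at an unadjusted p under 0.05 (background 2.12% and 2.22%), with a median difference of −0.33. Without heads library b the median was −0.06 and 7 members again passed. The members were Cam (−1.36), Syt1, Hrb27C, Rbp9, mtd, fne (−2.31) and Galphaq (−3.15).

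At 7–8 h, when neurons are first being made, the long regions held little of the counts of their genes. Median shares lay between 4.05% and 5.67% in all 16 libraries, without order between the groups. Each median was taken over the 51 to 56 members whose gene passed a minimum count in that library, so the set of members varied. Of the 60 members, 43 to 45 had enough counts for a test against the control. In Δelav,fnenFNE 5 of 43 fell and 0 rose (background 0.209% and 0.406%), in elavmin,fnenFNE 3 of 44 fell and 0 rose (0.0977% and 0.0488%), and in elavnFNE 3 of 45 fell and 1 rose (0.193% and 0.12%). At an unadjusted p under 0.05, 7 were lower and 4 higher in Δelav,fnenFNE (background 1.23% and 3.03%), 12 and 3 in elavmin,fnenFNE (0.97% and 1.38%) and 9 and 2 in elavnFNE (1.5% and 1.27%). DESeq2, run for Δelav,fnenFNE only, called 4 lower and 0 higher. All 3 comparisons share the control libraries. The smallest differences were those of scrt, heph and E(Pc) (0.004, −0.009 and 0.009) in Δelav,fnenFNE, of SPoCk, Hk and Galphaq (0.006, 0.007 and −0.01) in elavmin,fnenFNE and of Glut4EF, scrt and mtd (−0.01, −0.01 and 0.03) in elavnFNE. Levels of cell markers are given beside these results. The summed level of 4 neuroblast markers was 999.5 to 1077.6 CPM in Δelav,fnenFNE and 944.0 to 1024.6 CPM in elavmin,fnenFNE, both above the control (908.4 to 940.3 CPM). In elavnFNE it was 894.6 to 991.6 CPM, which overlaps the control. Of these markers wor (0.67, 0.34 and 0.38) and ase (0.73, 0.43 and 0.29) rose in all 3 mutants in the gene-level test. The levels of dpn and mira overlapped the control (104.54 to 116.64 CPM and 646.21 to 678.19 CPM) in all 3 mutants. The sum of 5 neuron markers was 74.0 to 106.1 CPM, 64.9 to 94.3 CPM and 77.1 to 99.4 CPM in the same mutants, against 85.7 to 116.9 CPM in the control. That of 4 glia markers was 271.6 to 303.0 CPM, 247.8 to 292.4 CPM and 179.5 to 221.4 CPM, against 249.3 to 263.9 CPM. In elavnFNE only Gs2 was lower without overlap (69.13 to 84.86 CPM, against 139.77 to 154.25 CPM), and repo, moody and Eaat1 overlapped the control. Their part in the shares was not tested.

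The hth region was nearly without counts in both double mutants, Δelav,fnenFNE and elavmin,fnenFNE. It had 0, 0, 4 and 0 counts in the Δelav,fnenFNE libraries, 0 to 6 counts in elavmin,fnenFNE and 11 to 25 counts in elavnFNE, against 21 to 63 counts in the control. The shares were 0.101%, 0.200%, 0.113% and 0.0963% in elavnFNE, against 0.242%, 0.243%, 0.462% and 0.222% in the control. Neither double mutant overlapped the control, and elavnFNE lay between. The fitted log2 changes were −5.03 and −4.07 in the double mutants (adjusted p = 2.53e-06 and 7.36e-10, edgeR), whose size depends on the prior count because most libraries were at 0, and −1.22 in elavnFNE, which did not pass (adjusted p = 0.486).

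CG34401 behaved likewise at higher counts. Its share was 0.0795%, 0.0518%, 0.229% and 0.0927% in Δelav,fnenFNE, 0.145%, 0.119%, 0.126% and 0.127% in elavmin,fnenFNE and 0.314%, 0.480%, 0.292% and 0.415% in elavnFNE, against 0.314%, 0.424%, 0.669% and 0.433% in the control. Both double mutants lay below all control libraries and elavnFNE overlapped the control. The log2 changes were −2.06 (SE 0.28), −1.79 (SE 0.24) and −0.25 (SE 0.22), and elavnFNE exceeded Δelav,fnenFNE by 1.80 (SE 0.28, adjusted p = 1.06e-05). In that direct comparison 2 of 43 members rose and 1 fell (background 0.14% and 0.154%), CG34401, corto (0.87) and CG3262 (−0.71), while Pdp1 (−0.002), Ten-a (−0.003) and Cam (0.005) had the smallest differences.

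**Figure D5:**
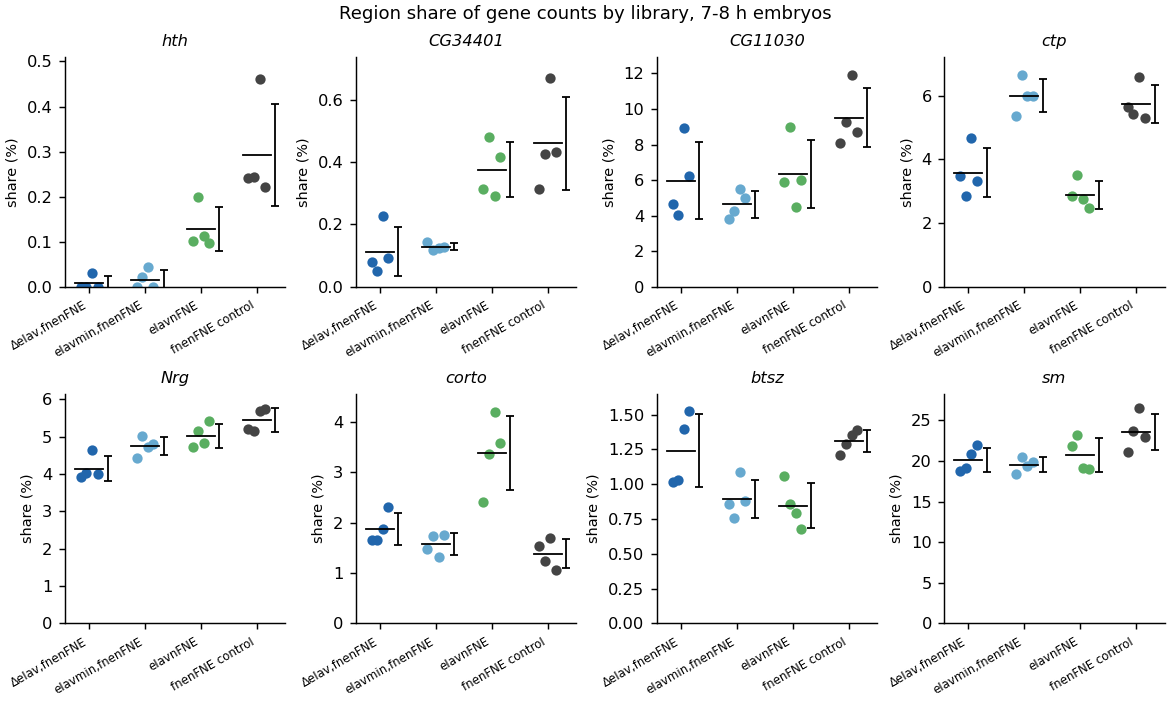
Share of gene counts (%, linear y axis with its own range in each panel) of selected members in each of the 4 libraries of Δelav,fnenFNE, elavmin,fnenFNE, elavnFNE and the fnenFNE control at 7–8 h (x axis), 1 panel per gene, with points for libraries, lines for means and bars of 1 SD to either side. For hth both double mutants lie between 0% and 0.0433% and the control between 0.222% and 0.462%.

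The ctp region, of a dynein light chain, separated the genotypes in another way. It had 3.48%, 2.86%, 4.68% and 3.33% in Δelav,fnenFNE, 5.38%, 6.66%, 5.99% and 5.99% in elavmin,fnenFNE and 2.87%, 3.50%, 2.74% and 2.47% in elavnFNE, against 5.65%, 5.41%, 6.59% and 5.30% in the control. Only elavmin,fnenFNE overlapped the control. The log2 changes were −0.68 in Δelav,fnenFNE and −0.99 in elavnFNE, which passed, and 0.06 in elavmin,fnenFNE. In elavmin,fnenFNE against Δelav,fnenFNE 1 of 42 members rose and 1 fell (background 0.0316% and 0.0744%), ctp with 0.74 and CG3262 with −0.57, and each lost its call without single libraries. The smallest differences there were those of hdc (−0.02), mtd (−0.03) and scrt (−0.04).

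CG11030 fell in all 3 mutants, by 0.68 in Δelav,fnenFNE, 1.01 in elavmin,fnenFNE and 0.59 in elavnFNE, with overlap to the control in the first and last of these. Nrg fell by 0.39 in Δelav,fnenFNE and btsz by 0.64 in elavnFNE. By bin, only the proximal 370 nt of Nrg passed in Δelav,fnenFNE (−0.595, adjusted p = 2.09e-05, edgeR), and its distal bin had −0.262. The distal bin of sm also passed there (−1.448, adjusted p = 0.00533, edgeR), although its summed region did not. The region of corto, a chromatin protein gene, was the only one called higher against the control, in elavnFNE (2.42%, 3.37%, 4.19% and 3.58%, against 1.55%, 1.25%, 1.70% and 1.06% in the control, log2 1.30, adjusted p = 1.06e-05, edgeR). The calls of Nrg, CG11030 and btsz each failed without several single libraries. Without control library c, or without Δelav,fnenFNE library a, b or d, 3 members fell in Δelav,fnenFNE. Without control library b or c, or elavnFNE library c or d, 2 members passed in elavnFNE. The fne region held 3 to 9 counts per library in Δelav,fnenFNE and 4 to 31 counts in the control, too few for a test in that pair.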

How the data were processed

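Stranded mRNA libraries of pooled male embryos or heads were sequenced and, per the labels and the study's methods, mapped by the authors to dm6 with snakePipes and STAR and counted per exon bin with HTSeq on Ensembl 96. The deposited tables held these raw counts without normalization for 84619 bins. They also held the authors' own comparisons, as log2 fold changes, p-values and mean signal, none of which was used. The 19 library columns repeated between tables were identical and used once.

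Bins of each listed region were summed to 1 feature. Pairs of groups were compared with edgeR 4.0.16 in R 4.3.3 (TMM, filterByExpr, robust quasi-likelihood fits, exon usage test, two-sided), with Benjamini-Hochberg adjustment over all features and a threshold of 0.01. The standard error is the absolute log2 change over the square root of F. Gene totals, summed over all bins of a gene with the region included, used edgeR's quasi-likelihood test at 0.05. DESeq2 1.42.0 was an alternative. The differences between stages came from an interaction term. The scripts were tested on simulated data. Named were, per comparison, the 3 called members with the largest and the 3 tested members with the smallest change, the ELAV/Hu genes, those called between mutants, and the others by role. Members and lists were chosen with earlier results of these data known. Replicates, lettered a to d, are separate pools of animals, and library totals (given above) limit the precision of regions with few counts.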

Additional observations from a re-analysis of the deposited data

Results flagged for a closer look

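In 116 groups of 4 libraries examined for the members named above, 5 had a library far from the other libraries of its group, and about 1 in 20 such groups is expected by chance. All 5 were at 7–8 h. The hth region had a share of 0.0314% in Δelav,fnenFNE library c, where the other libraries of the group had 0, a share of 0.200% in elavnFNE library b, against 0.0963% to 0.113% in the rest of its group, and a share of 0.462% in control library c, against 0.222% to 0.243%. The Nrg region had 4.65% in Δelav,fnenFNE library c, against 3.91% to 4.02%. The CASK region had 9.64% in control library c, against 7.69% to 7.92%. In 4 of these 5 cases it was library c of its group.

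The change against wild type differed between embryos and heads, by the interaction test, in 18 members for elavmin and in 7 members for Δelav,fnenFNE, in each case with the more negative change in embryos.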

How the results depend on the processing

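No result changed direction under any alternative, and of 3236 values of called member changes under alternatives 3018 kept their side of the threshold and 218 did not. Those kept include 209 values at an adjusted p under 0.05 and 97 with the limit of 3000 nt. Both reuse the p-values of the main fit, so these values could not lose their call. Counts of called members moved as follows (higher and lower together). With a limit of 3000 nt, which leaves fewer regions, they were 22 for Δelav and 21 for elavmin against wild-type embryos, 13 for Δelav,fnenFNE against Δelav, 2 for elavmin and 1 for Δelav,fnenFNE heads, 2, 1 and 1 for Δelav,fnenFNE, elavmin,fnenFNE and elavnFNE against control at 7–8 h, 1 for elavmin,fnenFNE against Δelav,fnenFNE, and 23 for wild-type heads against embryos. When every group of the same age was fitted together they were 12 for Δelav,fnenFNE against wild-type embryos, 2 for elavmin heads and 2 for elavmin against Δelav. At an adjusted p under 0.05 they were 11 for Δelav,fnenFNE against wild-type embryos and 7 for elavmin against Δelav. Without Δelav,fnenFNE libraries c and d they were 12 against wild type and 20 against Δelav. With bins at least 0.9 inside the region the count for elavmin,fnenFNE against Δelav,fnenFNE was 1. Gene-level calls in Δelav were 23, and 10 at a threshold of 0.01. The cause of these shifts beyond fewer regions, fewer libraries or the threshold was not tested.

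Leaving out single libraries gave 42 to 48 called members for Δelav, 36 to 42 for elavmin and 5 to 8 for Δelav,fnenFNE against wild-type embryos, 5 to 8 for elavmin and 2 to 4 for Δelav,fnenFNE heads, 3 to 5, 3 to 3 and 2 to 3 for Δelav,fnenFNE, elavmin,fnenFNE and elavnFNE against control at 7–8 h, 2 to 4 for elavmin against Δelav, 25 to 43 for Δelav,fnenFNE against Δelav, 1 to 2 for elavmin,fnenFNE and 2 to 3 for elavnFNE against Δelav,fnenFNE, 41 to 46 for wild-type heads against embryos, and 17 to 21 and 6 to 9 for the stage difference of elavmin and Δelav,fnenFNE. Replicate letters are shared between groups, but in no comparison did every same-lettered pair correlate above 0.1 (correlations between −0.478 and 0.685), so letters were not taken to pair libraries. In elavmin against wild-type heads all correlations were positive (0.039 to 0.42) and 3 of 3 elavmin libraries correlated best with their own letter, a hint from the data and not the design. With the letter as a replicate block the counts in the same order, before the stage differences, were 44, 41, 8, 10, 2, 5, 3, 3, 6, 36, 2, 2 and 42. Regions of few counts, such as hth and fne at 7–8 h, are limited by depth, and regions with bins partly outside or covered in part are measured with some error of extent.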
